A study of Mus musculus with 6 samples.

Results

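The antioxidant programme of primary mouse embryonic fibroblasts (MEFs, connective tissue cells cultured directly from embryos) was examined in a set of 38 genes. The set was defined by name: the transcription factor NRF2 (gene Nfe2l2) and its repressor, NRF2 target genes, and the enzymes that remove peroxides and superoxide or supply the NADPH they consume. All 38 genes were found among the 26898 genes measured, each passed the filter of a mean of 1 TPM in at least 1 group, and all were therefore tested. TPM counts the reads of a gene per unit of its length, set to an equal total for all samples.

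MEFs were isolated from E12.5 embryos on the C57BL/6 strain and harvested at passage 3. The WT group (samples 4, 5 and 8) had the genotype Kansl1fl/fl, in which both alleles of Kansl1 can be excised by Cre recombinase. The KO group (samples 3, 7 and 10) had the genotype Kansl1fl/fl/CAG-cre, with a tamoxifen-inducible Cre driven by the broadly active CAG promoter. All 6 samples received 1 μM tamoxifen for 48 h, so the control cells carried the floxed alleles and the drug but no Cre, and the effects of Cre and of Kansl1 loss cannot be told apart. Recovered reads assigned to genes amounted to between 17655495 and 27718259 per sample.

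KANSL1 is a subunit of the NSL complex, which acetylates histones at gene promoters. In the library check, Kansl1 measured 28.5, 26.7 and 24.4 TPM in WT 4, 5 and 8, against 13.7, 15.8 and 14.4 TPM in KO 3, 7 and 10. The KO mean was 55.1% of the WT mean, a log2 fold change of -0.82 (SE 0.11, adjusted p = 0.000859, n = 3 per group). Summed fibroblast markers spanned 10276 to 14857 TPM in WT and 11006 to 14443 TPM in KO, and all 10 markers overlapped between the groups. WT 4 stood apart in the present genes. It was the highest WT sample for 28 of the 38 members (73.7%), against 49.8% of all 14799 tested genes. A single 57-base RNA gene, Gm23935, took 15.5% to 25.6% of TPM per sample, so values were also examined after median-of-ratios scaling, which divides each sample by a factor taken from all tested genes. After this scaling, WT 4 was the highest WT sample for 22 members (57.9%), against 39.2% of all tested genes.

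NRF2 is held in the cytoplasm and targeted for degradation by KEAP1. When electrophiles or peroxides modify KEAP1, NRF2 escapes, enters the nucleus with a small MAF partner and binds antioxidant response elements in the promoters and enhancers of detoxification genes. Its targets make glutathione, recycle thioredoxin, reduce quinones, degrade haem, store iron and replenish NADPH, and fibroblasts switch them on when redox balance is disturbed.

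To show which promoters carry the letters to which NRF2 binds, the core of the antioxidant response element, TGACNNNGC, was searched on both strands from 250 bases before to 50 bases after each start site (RefSeq sequence, GRCm38.p6). Of the 38 members, 33 had such a window, and Hmox1, Sod3, Gsr, Gclc and Prdx6 were not searched here. The core was present in 9 of the 33 members (27.3%), and in 14.0% of all 27025 genes with a window. By window, it was present in 19.6% of the members' 46 windows and in 12.4% of all 32851 windows. Each match is printed on the strand that carries it, 5′ to 3′, with the core in capitals and 5 bases on either side.
Prdx1: ggggaTGACTCAGCgcttt
Me1: cgccgTGACTCAGCgcttc
G6pdx: tgcttTGACTGAGCtgacc
Txnrd1: cagaaTGACAAAGCaaaaa
Sod1: gagtcTGACCACGCccacc
Gclm: agagtTGACGGTGCgcccg
Nfe2l2: ccaccTGACTCCGCcatgc
Pgd: agagcTGACATTGCactga
Srxn1: cactcTGACCTAGCtgccc
Those of Prdx1 and Me1 read TGACTCAGC and lay at chr4:116685466-116685474 and chr9:86695912-86695920. The matches of G6pdx, Txnrd1 and Sod1 lay at chrX:74428929-74428937, chr10:82859114-82859122 and chr16:90220706-90220714. The matches of Gclm, Nfe2l2 and Pgd lay at chr3:122245423-122245431, chr2:75704895-75704903 and chr4:149166071-149166079, and that of Srxn1 at chr2:152105552-152105560. The Pgd match began 3 bases and the Srxn1 match 28 bases after the RefSeq start site of the window searched. A gene can have several such start sites, and some lie well inside the annotated gene. The annotated genes (mm10, GENCODE M21) span chr4:149149991-149166771 for Pgd and chr10:82833951-82897712 for Txnrd1, and the matches of both lie within them. Prdx1, Gclm, Txnrd1, Sod1 and Srxn1 are transcribed from the plus strand and carried the core on the minus strand. G6pdx is transcribed from the minus strand and carried it on the plus strand, whereas Me1, Nfe2l2 and Pgd, also on the minus strand of the genome, carried it in the direction of transcription.

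The 250 bases before the start site follow for the 4 members with a called change between WT and KO, described further on. They are printed in the direction of transcription. Capitals mark TGANTCA, the letters bound by AP-1 and related leucine zipper factors, which read the same on both strands and can lie inside the NRF2 core, as they did in Prdx1 and Me1.
Srxn1: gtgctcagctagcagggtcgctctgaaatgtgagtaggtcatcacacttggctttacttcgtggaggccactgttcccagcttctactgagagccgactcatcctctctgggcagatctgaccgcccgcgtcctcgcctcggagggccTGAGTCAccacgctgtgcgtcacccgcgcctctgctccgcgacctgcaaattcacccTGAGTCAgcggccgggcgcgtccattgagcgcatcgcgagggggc
Nqo1: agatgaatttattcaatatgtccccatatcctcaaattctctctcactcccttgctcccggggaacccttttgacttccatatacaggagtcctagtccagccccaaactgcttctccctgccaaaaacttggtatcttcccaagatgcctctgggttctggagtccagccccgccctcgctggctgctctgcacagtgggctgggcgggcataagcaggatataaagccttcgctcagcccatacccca
Gss: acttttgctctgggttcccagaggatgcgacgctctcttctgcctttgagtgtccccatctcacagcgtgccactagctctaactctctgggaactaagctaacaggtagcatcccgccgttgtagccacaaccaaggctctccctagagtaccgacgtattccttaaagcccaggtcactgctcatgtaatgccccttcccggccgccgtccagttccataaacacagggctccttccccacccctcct
Ftl1: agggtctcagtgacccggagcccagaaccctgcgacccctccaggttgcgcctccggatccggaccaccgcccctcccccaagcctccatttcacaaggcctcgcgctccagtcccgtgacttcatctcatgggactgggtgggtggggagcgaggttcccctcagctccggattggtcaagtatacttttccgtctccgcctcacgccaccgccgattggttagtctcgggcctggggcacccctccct
These stretches lay at chr2:152105274-152105523 on the plus strand for Srxn1 and, on the minus strand, at chr8:107403206-107403455 for Nqo1, chr2:155592811-155593060 for Gss and chr7:45459887-45460136 for Ftl1. The annotated genes (mm10, GENCODE M21) span chr2:152105516-152111376 for Srxn1, chr8:107388225-107403206 for Nqo1, chr2:155563181-155592810 for Gss and chr7:45457944-45459884 for Ftl1. Srxn1 held TGANTCA at 102 and at 45 bases before its start, and the upstream stretches of Nqo1, Gss and Ftl1 held neither motif. Over the full windows, TGANTCA was present in Glrx, Me1, Prdx1 and Srxn1, 4 of 33 members (12.1%), and in 8.97% of all genes. Members' windows were rich in CpG, with a median of 18.5 CpG per window against 7.0 in all windows. These matches describe letters only and were not tested against expression. Bases outside the windows were not searched, so a window without a match does not show that the gene lacks the element.

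The question for these genes was whether their transcripts differed between WT and KO MEFs. A gene was called changed at a Benjamini-Hochberg adjusted p under 0.005 over all 14799 tested genes with a log2 fold change above 0.5 or below -0.5. A total of 4 genes of the set rose by this rule, namely Nqo1, Srxn1, Gss and Ftl1, and 0 fell. Of all tested genes, 1.64% were called higher and 9.03% lower. Without the fold threshold, at an adjusted p under 0.05, 7 members were higher (those of the first rule with Fth1, Gclc and Prdx6) and 3 were lower (Prdx3, Taldo1 and Txnrd2), against 7.14% and 20.7% of all tested genes. At an unadjusted p under 0.05, 17 members were higher and 3 lower, against 12.2% and 27.2% of all tested genes. The 4 called members became 6 without WT 4 (Hmox1 and Fth1 in addition), 2 without KO 10 (Nqo1 and Srxn1) and 1 (Srxn1) without WT 5, WT 8, KO 3 or KO 7. Genes called higher over the whole table numbered 242, became 252 without WT 4 and fell to between 84 and 141 in the other 5 fits. Under the looser rule, Fth1 and Prdx3 stayed under 0.05 with any 1 sample left out, and Taldo1 did so except without KO 10 (adjusted p = 0.0560). Gclc passed only without WT 4 or KO 3, Prdx6 only without WT 4 and Txnrd2 only without KO 7, with adjusted p reaching 0.0929, 0.139 and 0.174 in the other fits.

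The members' median log2 fold change was 0.18, and that of all tested genes was -0.07. In 16 members every KO sample lay above every WT sample and in 5 every KO sample lay below, against 13.3% and 29.9% of all tested genes. Scaling moved the median of all tested genes by 0.09, to 0.02, and the members' median to 0.28. After scaling, 6 members were called higher (Fth1 and Gclc in addition) and 1 lower (Prdx3), against 3.20% and 9.73% of all tested genes. At an adjusted p under 0.05 the scaled values gave 23 members higher and 3 lower, against 20.3% and 23.2% of all tested genes, so the count of members higher depended on the scaling more than that of members lower. With voom, a limma method for counts, on reads recovered from the TPM, 6 members were called higher and 1 lower (4.34% and 12.2% of all tested genes), and 24 and 3 at an adjusted p under 0.05 (21.7% and 24.3%). After scaling, all KO samples lay above all WT samples in 26 members (27.9% of all tested genes) and below them in 4 (29.1%).

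**Figure D1:**
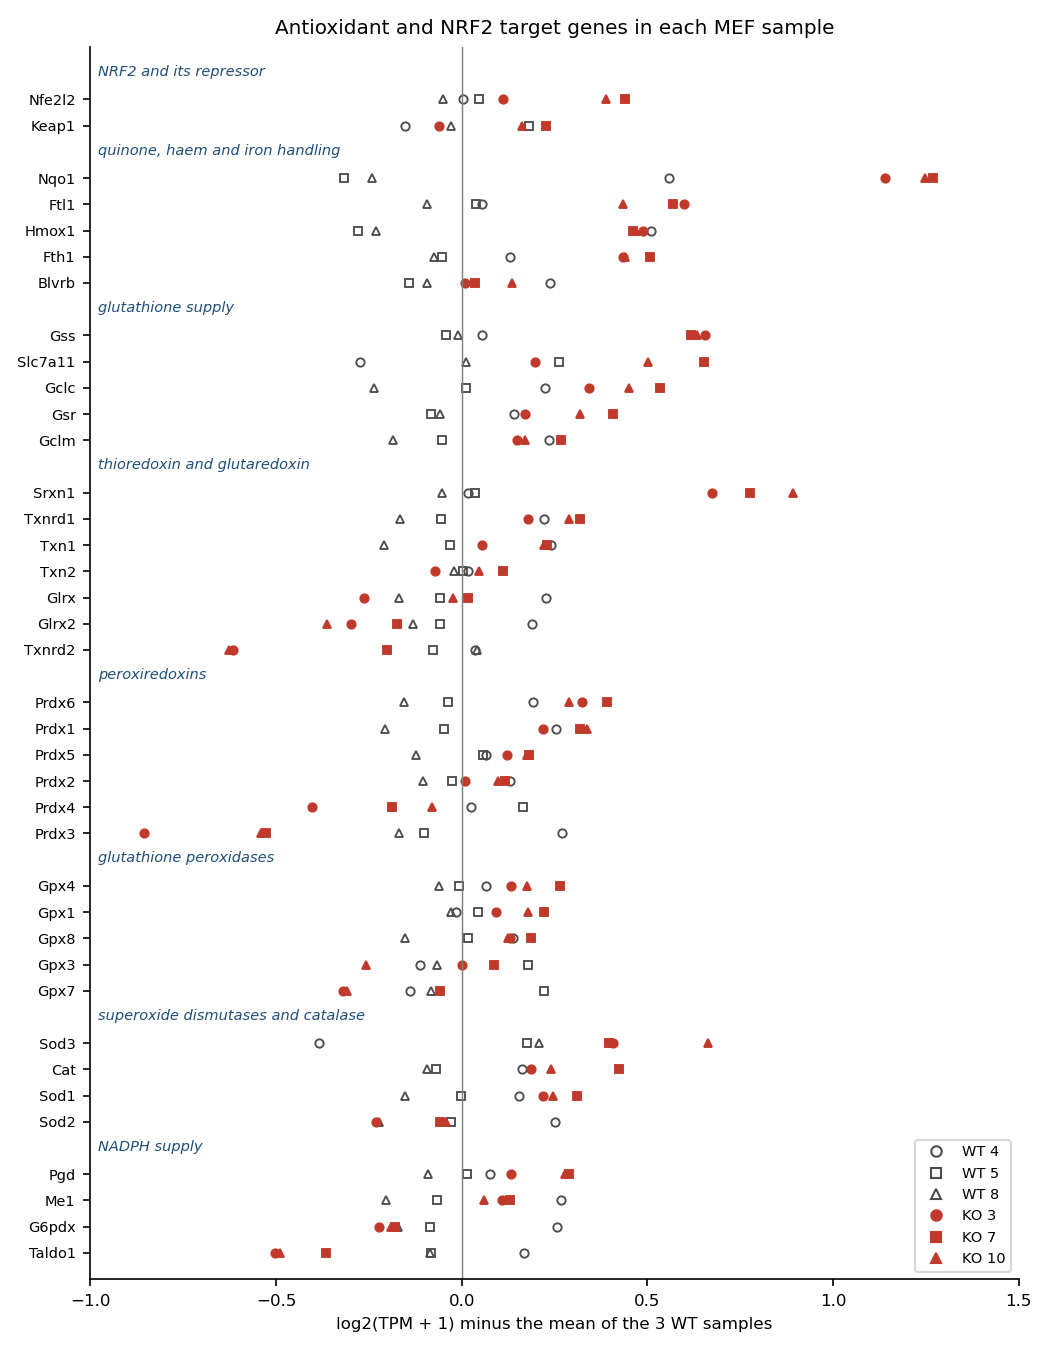
Level of each member in each sample, as log2(TPM + 1) minus the mean of the 3 WT samples on the horizontal axis, with members grouped by role and ordered by fold change within a role. Open grey symbols are WT samples and filled red symbols KO samples; WT 4 (open circles) was the highest WT sample for 28 of 38 members, and the KO points of Nqo1, Srxn1, Gss and Ftl1 lie to the right of all WT points.

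Summed over the set, the members took 0.452%, 0.399% and 0.368% of TPM in WT 4, 5 and 8, and 0.453%, 0.490% and 0.475% in KO 3, 7 and 10. The groups were separated only by the narrow gap between WT 4 and KO 3. With Gm23935 left out of the total, the shares were 0.535%, 0.489% and 0.487% in WT and 0.610%, 0.580% and 0.593% in KO. Levels per length spanned a wide range, from the cystine transporter gene Slc7a11 at a mean of 4.39 ± 0.989 TPM (SD, n = 3) in WT to the thioredoxin gene Txn1 at 584 ± 93.1 TPM (SD, n = 3).

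At the head of the pathway, Nfe2l2, which encodes NRF2, measured 76.5, 78.7 and 73.6 TPM in WT 4, 5 and 8, against 82.4, 104 and 100.1 TPM in KO 3, 7 and 10. Every KO sample lay above every WT sample, with KO 3 nearest to the WT range. The log2 fold change was 0.31 (SE 0.11) with an adjusted p of 0.0605, and after scaling it was 0.42 with an adjusted p of 0.00141, still under the fold threshold. Keap1, which encodes the adaptor that hands NRF2 to a ubiquitin ligase, spanned 17.6 to 22.4 TPM in WT and 18.8 to 23.2 TPM in KO. Its log2 fold change was 0.11 (95% confidence interval -0.18 to 0.39, adjusted p = 0.555), and 10.9% of its exon length lies opposite the antisense gene Gm16754, whose reads cannot be told apart without strand.

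Among the genes of quinone, haem and iron handling, 2 of 5 were called higher and 0 lower. Nqo1, a quinone reductase and a standard reporter of NRF2 activity, measured 41.6, 22.2 and 23.4 TPM in WT 4, 5 and 8, against 62.6, 68.6 and 67.6 TPM in KO 3, 7 and 10. WT 4 lay well above the other WT samples but below every KO sample. The KO mean was 2.28-fold the WT mean, with a log2 fold change of 1.22 (SE 0.20, adjusted p = 0.00242), the largest of the set. Without WT 4 the log2 fold change was 1.50 (adjusted p = 0.000273), and the call was also made without KO 10. It was lost, with adjusted p from 0.00513 to 0.0121, when WT 5, WT 8, KO 3 or KO 7 was left out.

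Hmox1, which encodes the inducible haem oxygenase that splits haem into biliverdin, iron and carbon monoxide, measured 242, 140 and 144 TPM in WT 4, 5 and 8, against 239, 234 and 235 TPM in KO 3, 7 and 10. WT 4 lay above all 3 KO samples, and WT 5 and WT 8 lay far below them, so the groups overlapped. The log2 fold change was 0.47 (SE 0.19, adjusted p = 0.0881), which was not called. Without WT 4 it was 0.73 with an adjusted p of 0.00105, which was called. In the other 5 fits without 1 sample it was not called, with the log2 fold change down to 0.33 and the adjusted p up to 0.245, both without WT 5. After scaling, every KO sample lay above every WT sample (0.58, adjusted p = 0.0494). Blvrb, biliverdin reductase B, lay between 6.93 and 9.31 TPM in WT and between 7.81 and 8.62 TPM in KO (log2 fold change 0.06, adjusted p = 0.774). The gene of biliverdin reductase A, Blvra, is not a member and is described with the wider lists.

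Ferritin, which stores the iron that haem breakdown releases, is built from 2 kinds of chain. The light chain gene Ftl1 measured 245, 242 and 221 TPM in WT 4, 5 and 8, against 358, 350 and 319 TPM in KO 3, 7 and 10. All KO samples lay above all WT samples, a 1.45-fold difference in means (log2 fold change 0.53, SE 0.10, adjusted p = 0.00312). With each sample left out in turn the adjusted p ranged from 0.00446 to 0.0130, and only the fit without WT 4 kept the call. Of its exon length, 26.5% lies opposite Gm10252 and 8.13% overlaps Gm22133, and Ftl1 has processed pseudogenes, so its count is uncertain; Ftl1-ps1 was listed at 2.12 to 3.82 TPM. The heavy chain gene Fth1, whose product oxidises the iron for storage, measured 263, 231 and 228 TPM in WT, against 325, 342 and 327 TPM in KO. It was higher in every KO sample by 0.46 on the log2 scale (SE 0.09, adjusted p = 0.00649), and it was called after scaling (0.56, adjusted p = 0.00132).

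**Figure D2:**
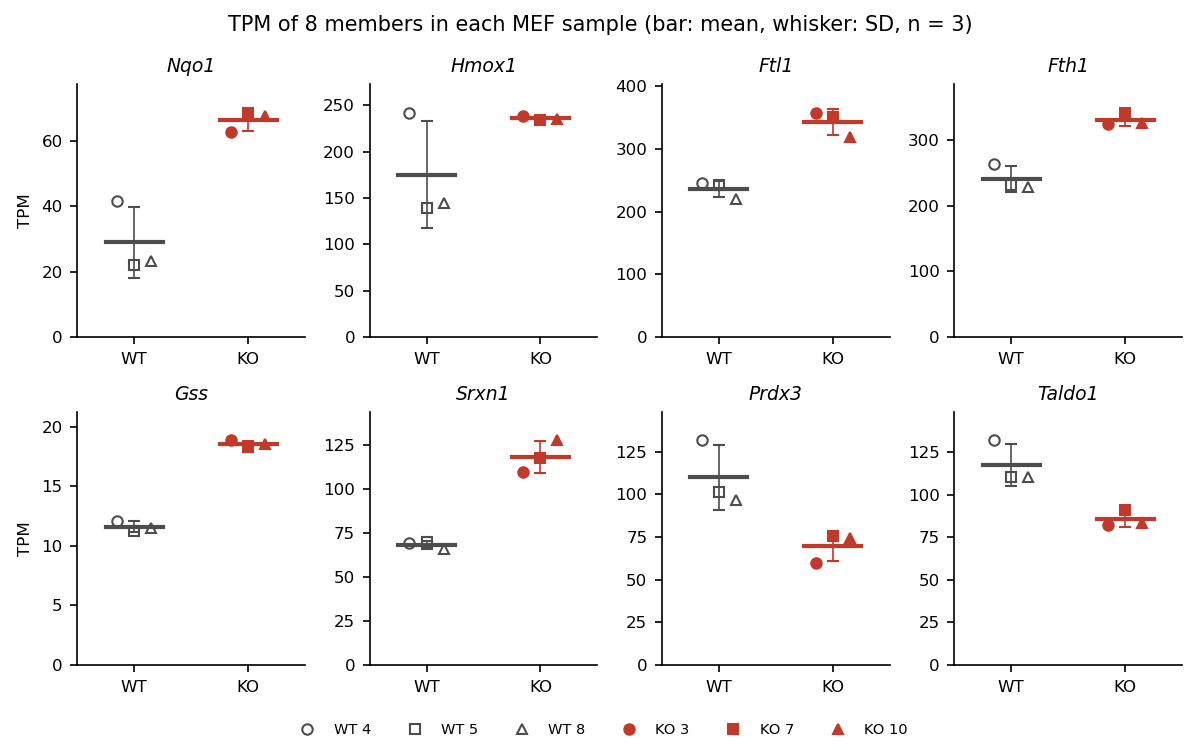
TPM of 8 members in each sample, with the horizontal bar at the mean and the whisker at the SD of 3 samples. Nqo1, Ftl1, Fth1, Gss and Srxn1 are separated upward in KO, Prdx3 and Taldo1 are separated downward, and Hmox1 overlaps through WT 4 at 242 TPM.

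Markers of macrophages, cells that recycle haem iron, differed between the groups. Summed over 13 macrophage markers, WT 4, 5 and 8 measured 43.0, 43.1 and 52.5 TPM and KO 3, 7 and 10 measured 95.7, 105 and 191 TPM. All 10 tested markers were higher in every KO sample and passed an adjusted p of 0.05, with a median log2 fold change of 0.99, and 2 of them, C1qc and Lyz2, were called. The other markers, Ptprc, Itgam and Aif1, stayed under 1 TPM in all samples, and 68.7% of the exon length of Itgam overlaps Gm49368 on the same strand, so its low value is uncertain. C1qc was not called after scaling (adjusted p = 0.00531). Scaled Hmox1 values were 272, 223 and 238 in KO 3, 7 and 10. Epithelial marker sums were also apart, at 40.4 to 45.7 TPM in WT and 49.2 to 66.3 TPM in KO, as were endothelial sums, at 1.10 to 1.87 and 2.31 to 3.10 TPM. None of the 3 tested genes of these lists (Krt8, Krt18 and Kdr) was called as deposited or after scaling. With voom, Kdr was called higher (log2 fold change 1.08) and Krt8 and Krt18 were not. Epcam, Cdh1, Pecam1, Cdh5 and Tek stayed under 1 TPM. In bulk RNA, more cells of a type and more RNA per cell cannot be told apart, and the part of these cell types in the values of Nqo1, Ftl1 and the other members was not tested.

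**Figure D3:**
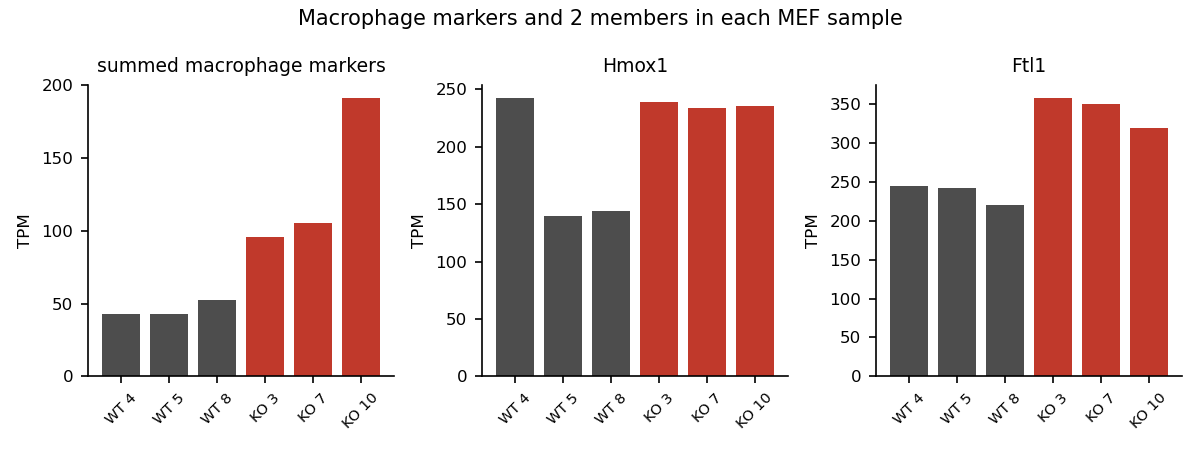
Summed TPM of 13 macrophage markers (left) beside the TPM of Hmox1 (middle) and Ftl1 (right), 1 bar per sample with WT in grey and KO in red, all axes starting at 0. The marker sum is 43.0 to 52.5 TPM in WT and 95.7 to 191 TPM in KO, Ftl1 is higher in all KO samples, and Hmox1 of WT 4 reaches 242 TPM.

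Glutathione supply had 1 of 5 members called higher and 0 lower, and all 5 had a positive fold change, as did 42.6% of all tested genes (52.3% after scaling). Gss, the glutathione synthetase that completes the tripeptide, measured 12.1, 11.2 and 11.5 TPM in WT 4, 5 and 8, against 18.9, 18.3 and 18.6 TPM in KO 3, 7 and 10. Within each group the samples lay close together, and the groups were far apart, with a 1.60-fold difference in means (log2 fold change 0.64, SE 0.10, adjusted p = 0.00185). The call held without WT 4 (adjusted p = 0.00377) and was lost without any other single sample, at an adjusted p of up to 0.0116. The genes Acss2, Gssos1 and Gssos2 on the opposite strand overlap 6.68%, 5.44% and 6.51% of its exon length.

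Glutamate-cysteine ligase, the rate-limiting enzyme of glutathione synthesis, has a catalytic and a modifier subunit. The catalytic subunit gene Gclc measured 33.3, 28.6 and 23.9 TPM in WT, against 36.2, 41.5 and 39.1 TPM in KO. All KO samples lay above all WT samples, with a log2 fold change of 0.44 (SE 0.13, adjusted p = 0.0316) that passed the call rule after scaling (0.54, adjusted p = 0.00238). The modifier subunit gene Gclm overlapped between the groups, at 14.4 to 19.6 TPM in WT and 18.4 to 20.1 TPM in KO (log2 fold change 0.20, adjusted p = 0.285). Slc7a11, which imports the cystine from which glutathione is made, lay at 3.41 to 5.39 TPM in WT and 5.12 to 7.38 TPM in KO (0.45, adjusted p = 0.0885). Gsr, the reductase that regenerates glutathione, lay at 40.7 to 47.7 TPM in WT and 48.7 to 57.6 TPM in KO without overlap (0.30, adjusted p = 0.0690). After scaling, all 5 members were higher at an adjusted p under 0.05, with 0.0337 for Gclm, 0.0315 for Slc7a11 and 0.00305 for Gsr.

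In the thioredoxin and glutaredoxin group, 1 of 7 members was called higher and 0 lower. Srxn1, which encodes the sulfiredoxin that repairs overoxidised peroxiredoxins, measured 69.1, 70.1 and 65.8 TPM in WT 4, 5 and 8, against 109.5, 118 and 128 TPM in KO 3, 7 and 10. The WT samples lay within a few TPM of each other and every KO sample lay far above them. The difference was 1.73-fold (log2 fold change 0.78, SE 0.10, adjusted p = 0.000623) and was called in all 6 fits that left out 1 sample, with adjusted p from 0.00141 to 0.00380. It was also the only member called when all genes of the table were tested without the filter on low values. Srxn1 is the called member whose window holds the NRF2 core and both copies of TGANTCA printed above.

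The cytosolic thioredoxin Txn1 and its reductase Txnrd1 overlapped between the groups as deposited. Txn1, a small protein that reduces disulfides, spanned 501 to 684 TPM in WT and 601 to 679 TPM in KO (log2 fold change 0.17, adjusted p = 0.352). Txnrd1, the selenoprotein that recharges it from NADPH, spanned 139 to 182 TPM in WT and 177 to 195 TPM in KO (0.26, adjusted p = 0.122). In both genes it was WT 4 that reached into the KO range. After scaling, every KO sample lay above every WT sample in both (adjusted p = 0.0302 for Txn1 and 0.00817 for Txnrd1). Glrx, a glutathione-dependent cytosolic glutaredoxin, spanned 10.9 to 14.7 TPM in WT and 10.2 to 12.5 TPM in KO, and its log2 fold change of -0.09 turned to 0.01 after scaling.

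Of the mitochondrial partners Txnrd2, Glrx2 and Txn2, 1 passed the looser rule, in the downward direction. Txnrd2, the mitochondrial thioredoxin reductase, measured 4.93, 4.48 and 4.96 TPM in WT 4, 5 and 8, against 2.78, 4.03 and 2.75 TPM in KO 3, 7 and 10. KO 7 lay close to WT 5 and the other KO samples lay well below (log2 fold change -0.48, SE 0.16, adjusted p = 0.0482). Its 89 to 207 reads per sample were few. Glrx2, the mitochondrial glutaredoxin, spanned 4.59 to 5.99 TPM in WT and 3.77 to 4.44 TPM in KO (-0.28, adjusted p = 0.179), and mitochondrial thioredoxin Txn2 spanned 54.6 to 56.0 TPM in WT and 52.6 to 59.9 TPM in KO (0.03, adjusted p = 0.848).

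**Figure D4:**
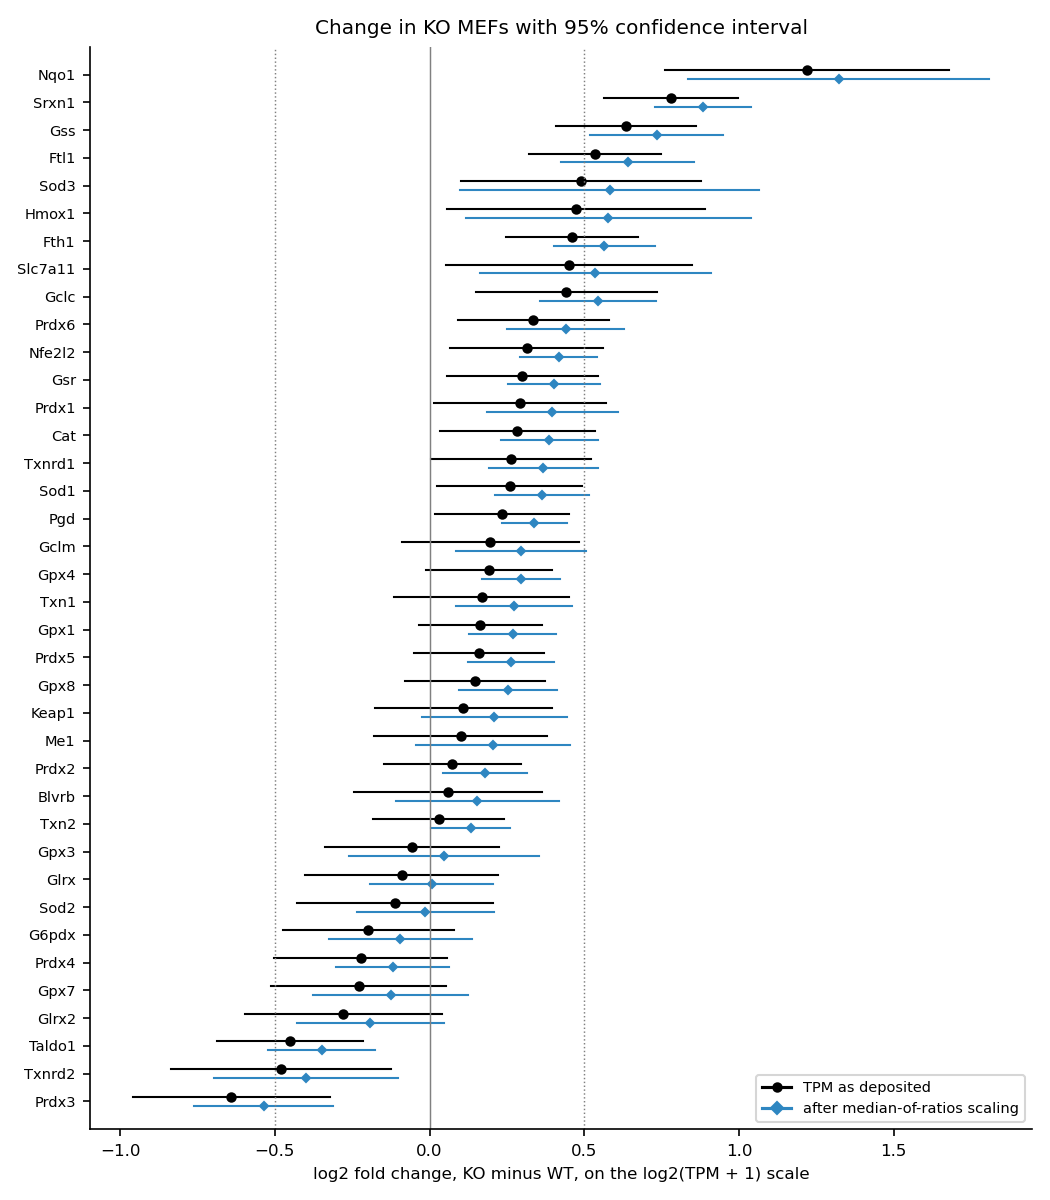
Log2 fold change of KO against WT with its 95% confidence interval for each member, ordered by size, from the TPM as deposited (black circles) and after median-of-ratios scaling (blue diamonds), with dotted lines at the fold thresholds of -0.5 and 0.5. Nqo1, Srxn1, Gss and Ftl1 lie above 0.5 in both, Prdx3 lies below -0.5 in both, and scaling moves all members upward.

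Peroxiredoxins, thiol enzymes that reduce hydrogen peroxide, had 0 of 6 members called in either direction before scaling. Prdx3, the mitochondrial family member that thioredoxin 2 recharges, measured 132, 101 and 96.9 TPM in WT 4, 5 and 8, against 59.8, 75.3 and 74.6 TPM in KO 3, 7 and 10. Every KO sample lay below every WT sample. The log2 fold change was -0.64 (SE 0.14, adjusted p = 0.00901), short of the threshold, and after scaling Prdx3 was called lower (-0.54, adjusted p = 0.00493). Prdx6, a single-cysteine peroxiredoxin that uses glutathione, measured 132, 112 and 103 TPM in WT, against 144, 152 and 141 TPM in KO, higher in every KO sample (0.33, SE 0.11, adjusted p = 0.0462).

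The other peroxiredoxins were not past either threshold as deposited. Cytosolic Prdx1 spanned 296 to 408 TPM in WT and 398 to 432 TPM in KO (log2 fold change 0.29, adjusted p = 0.111). Prdx2, also cytosolic, spanned 99.2 to 117 TPM in WT and 107 to 116 TPM in KO (0.07, adjusted p = 0.611). In both genes WT 4 reached into the KO range. Prdx4, the family member of the endoplasmic reticulum, spanned 72.3 to 92.6 TPM in WT and 62.2 to 78.0 TPM in KO (-0.22, adjusted p = 0.216). Prdx5, found in mitochondria and peroxisomes, spanned 114 to 130 TPM in WT and 135 to 141 TPM in KO without overlap (0.16, adjusted p = 0.241), and 19.1% of its exon length lies opposite Trmt112. After scaling, Prdx1 (0.0120), Prdx2 (0.0425) and Prdx5 (0.0114) passed an adjusted p of 0.05, with every KO sample above every WT sample.

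Of the 5 glutathione peroxidases, which reduce peroxides with glutathione or another thiol, 0 passed either rule as deposited, and 3 were higher at an adjusted p under 0.05 after scaling. Gpx1, the main cytosolic enzyme, spanned 299 to 315 TPM in WT and 325 to 356 TPM in KO (log2 fold change 0.16, adjusted p = 0.201). Gpx4, which reduces lipid hydroperoxides in membranes, spanned 216 to 235 TPM in WT and 247 to 270.1 TPM in KO (0.19, adjusted p = 0.148). Its pseudogene Gpx4-ps2 was listed at 35.5 to 48.6 TPM, so the count of Gpx4 is uncertain. Gpx1 and Gpx4 were higher in every KO sample, and both passed an adjusted p of 0.05 after scaling (0.0114 for Gpx1 and 0.00525 for Gpx4). The secreted Gpx3 (46.3 to 63.0 TPM over all samples) and the endoplasmic reticulum enzymes Gpx7 (47.0 to 68.8 TPM) and Gpx8 (221 to 280.1 TPM) overlapped between the groups as deposited. Gpx8 was separated upward after scaling (0.25, adjusted p = 0.0218). The log2 fold change of Gpx3 was -0.06 and turned to 0.05 after scaling.

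Superoxide dismutases turn superoxide into hydrogen peroxide, and catalase removes the product. The cytosolic Sod1 measured 78.2, 70.2 and 63.2 TPM in WT, against 81.9, 87.5 and 83.5 TPM in KO (log2 fold change 0.26, SE 0.10, adjusted p = 0.0955). Cat, the peroxisomal catalase, measured 73.6, 62.5 and 61.4 TPM in WT, against 74.8, 88.4 and 77.7 TPM in KO (0.28, adjusted p = 0.0882). The extracellular Sod3 measured 5.81, 9.03 and 9.25 TPM in WT, against 10.8, 10.7 and 13.1 TPM in KO (0.49, adjusted p = 0.0619). In all 3 genes the KO samples lay above the WT samples without passing the adjusted threshold, and after scaling Sod1 and Cat passed 0.05 (0.00487 and 0.00430). The mitochondrial Sod2 overlapped, at 9.89 to 14.1 TPM in WT and 9.82 to 11.3 TPM in KO (-0.11, adjusted p = 0.594).

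Taken by compartment, a grouping made after the values were seen and not tested, the 6 mitochondrial members (Txn2, Txnrd2, Prdx3, Prdx5, Sod2 and Glrx2) had a median log2 fold change of -0.19, or -0.10 after scaling. Of these, 2 were positive and 4 negative on both scales, where 57.4% of all tested genes were negative as deposited and 47.7% after scaling. Other members with mitochondrial forms, such as Gpx1, Gpx4 and Gsr, were not counted here. Their log2 fold changes were 0.16, 0.19 and 0.30 as deposited, so the median depends on which members are chosen.

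NADPH supply held no called member. Taldo1, the transaldolase of the pentose phosphate pathway, measured 132, 111 and 111 TPM in WT 4, 5 and 8, against 82.5, 90.9 and 83.4 TPM in KO 3, 7 and 10. All KO samples lay below all WT samples, with a log2 fold change of -0.45 (SE 0.11, adjusted p = 0.0115). G6pdx, which catalyses the entry step of that pathway, spanned 41.6 to 56.3 TPM in WT and 40.1 to 41.3 TPM in KO (-0.20, adjusted p = 0.265), and 13.6% of its exon length lies opposite Ikbkg. Pgd, the next NADPH-producing enzyme, measured 92.5, 88.6 and 82.2 TPM in WT, against 96.3, 107 and 107 TPM in KO (0.23, adjusted p = 0.101, or 0.00165 after scaling). Me1, the cytosolic malic enzyme, spanned 88.7 to 123 TPM in WT and 107 to 112 TPM in KO (0.10, adjusted p = 0.586).

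Further redox genes in 5 wider lists were read from the same test, in which 1.64% of all tested genes were called higher and 9.03% lower. Median log2 fold changes were 0.29 for NRF2 partners and regulators, 0.07 for other NRF2 targets and -0.09 for thiol and metal redox genes. They were -0.26 for selenoprotein synthesis and -0.18 for superoxide sources, the last from only 2 tested genes. The median of all tested genes was -0.07. After scaling, the list medians were 0.39, 0.17, -0.05, -0.16 and -0.09 in the same order, against 0.02 for all tested genes. Of 13 tested NRF2 partners and regulators, 1 was called higher and 0 lower. The called gene, Sqstm1, encodes the autophagy receptor p62, which binds KEAP1 and is itself an NRF2 target. Sqstm1 measured 247, 293 and 252 TPM in WT, against 411, 447 and 416 TPM in KO (log2 fold change 0.69, adjusted p = 0.00129). Of its exon length, 17.3% lies opposite Mrnip. Of 20 other NRF2 targets tested, 1 was called higher and 2 lower, against 3 and 1 after scaling and 5 and 2 with voom. Ephx1, the microsomal epoxide hydrolase, measured 116, 75.7 and 76.1 TPM in WT, against 146, 163 and 165 TPM in KO (0.84, adjusted p = 0.00462). WT 4 again lay above the other WT samples, as it did for Nqo1 and Hmox1.

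Aifm2, which encodes the ferroptosis suppressor FSP1 that reduces coenzyme Q, measured 8.74, 7.31 and 7.50 TPM in WT, against 1.87, 2.05 and 2.01 TPM in KO. It fell by 1.57 on the log2 scale (adjusted p = 0.000178), further than any member of the set. Akr1b10, an aldo-keto reductase, measured 10.6, 8.10 and 8.17 TPM in WT, against 5.06, 4.20 and 4.94 TPM in KO (-0.79, adjusted p = 0.00337). It was not called after scaling (-0.70, adjusted p = 0.00770).

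Of 25 tested genes in the list of thiol and metal redox, 2 were called higher and 1 lower. Mt1, a metallothionein, rose from 55.6, 73.3 and 76.1 TPM in WT to 153, 149 and 182 TPM in KO (log2 fold change 1.24, adjusted p = 0.000400), and the thioredoxin-like Nxn from a WT mean of 99.3 to a KO mean of 143 TPM (0.53, adjusted p = 0.00449). Blvra, which reduces biliverdin to bilirubin, fell from 14.4, 16.4 and 14.1 TPM in WT to 6.24, 5.40 and 6.36 TPM in KO (-1.19, adjusted p = 0.000281). Among 8 genes of selenoprotein synthesis, 0 were higher and 1 lower, namely Sepsecs, which makes selenocysteine on its tRNA (-0.84, adjusted p = 0.00410). Only 2 of 13 superoxide source genes reached the filter, and 0 of these were called. With each sample left out in turn, Aifm2, Blvra and Mt1 were called in all 6 fits, Sqstm1 in 3, Ephx1 in 1 (without WT 4), and Akr1b10, Nxn and Sepsecs in 0, at adjusted p of up to 0.0193.

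**Figure D5:**
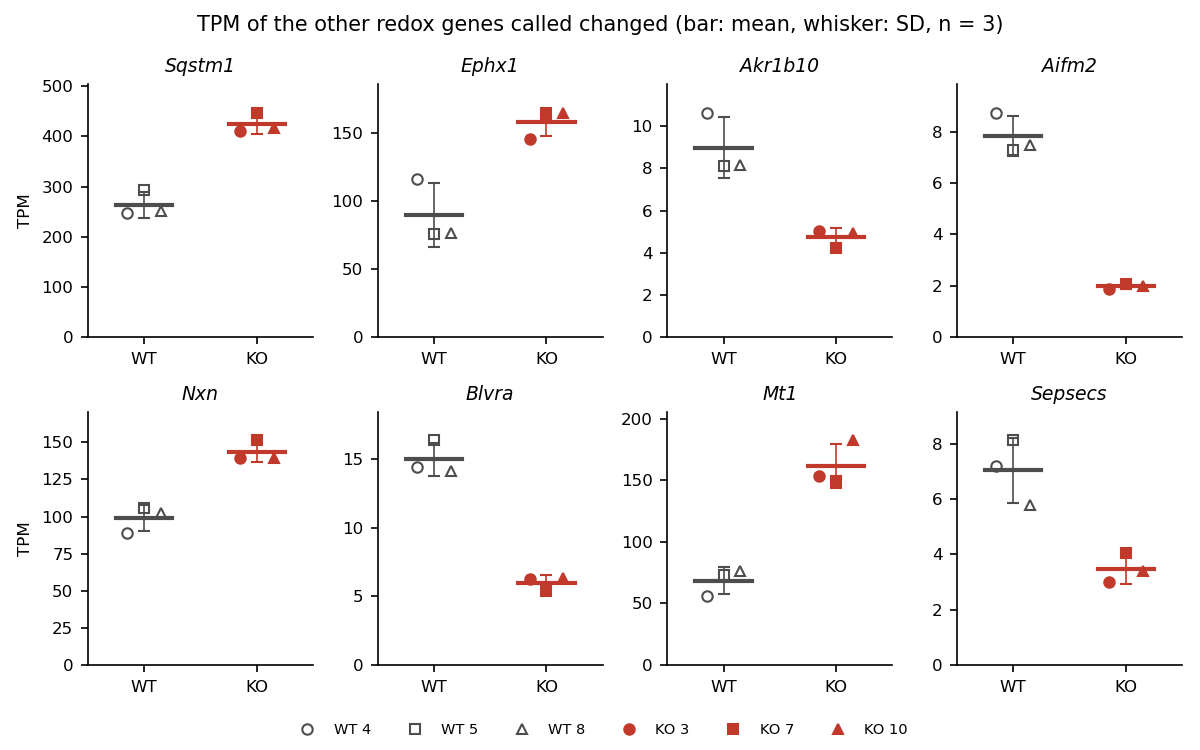
TPM per sample of the 8 genes of the wider redox lists that were called, with the mean as a bar and the SD of 3 samples as a whisker. Sqstm1, Ephx1, Nxn and Mt1 are higher in all KO samples, and Akr1b10, Aifm2, Blvra and Sepsecs are lower in all KO samples, Aifm2 at 0.252-fold the WT mean.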

How the data were processed

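RNA from 3 WT and 3 KO MEF samples was sequenced (2 μg input per sample, per the labels). The authors aligned reads to mm10 with STAR according to the methods, whereas the submitters' processing notes name Bowtie 0.12.2. The counting program, annotation and strand setting are not given in the sources used here. The authors deposited TPM for 26898 genes, each column summing to 1000000. Columns deposited with them hold the log2 fold change and adjusted p-value of the authors' own comparison and were not used.

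Gene positions and exon lengths came from GENCODE M21, in which all 26898 identifiers were found. TPM multiplied by exon length gave whole reads for 100% of values above 0 at a tolerance of 0.05, from which depth was taken. The number of reads limits the precision of low genes such as Txnrd2. The 14799 genes whose WT or KO mean reached 1 TPM were tested on log2(TPM + 1). The test was limma's moderated test (version 3.58.1, R 4.3.3), fitted to the 2 groups with a variance trend and no covariate. Fold changes are on that scale, which understates changes of low genes, and p-values were Benjamini-Hochberg adjusted over all tested genes. The fit was tested on simulated data with known changes. That simulation gave all genes the same relative spread and no shift shared by the genes of a sample. It therefore does not test the calls against a shift such as that of WT 4. Alternatives were a pseudocount of 0.1, no filter, a 10 TPM filter, median-of-ratios scaling, voom on the recovered reads, no variance trend, other thresholds and leaving out each sample. All members are named, with Kansl1, called genes of the wider redox lists and marker genes. The members, gene lists and thresholds were chosen with earlier results of these data known. Sequences came from RefSeq (GRCm38.p6).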

Additional observations from a re-analysis of the deposited data

How the results depend on the processing

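No paired analysis was run, because the sample labels name no litter and replicate numbers differ between WT (4, 5, 8) and KO (3, 7, 10). Whether WT and KO samples shared a litter is not known. Of the members' 228 single-gene fits without 1 sample, 205 kept their direction and side of the threshold. Called members (4, with 4 higher and 0 lower) numbered 1 without the filter on low values (1 higher), 2 without the variance trend (2 higher), 7 after scaling and 7 with voom on recovered reads (1 of them lower in each), 10 at an adjusted p under 0.05 with no fold threshold (7 higher, 3 lower), and 1 was lower with a 10 TPM filter and at an adjusted p under 0.05 with the fold threshold. Leaving out 1 sample gave 1 to 6 called members, of which 1 to 6 were higher and 0 lower. Their median log2 fold change of 0.18 was 0.28 after scaling and 0.28 with voom. Kansl1 was called in all settings.

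Over all genes (1579, with 242 higher and 1337 lower), calls numbered 341 without the filter (55 and 286), 2441 with voom (642 higher), 3147 at an adjusted p under 0.05 with the fold threshold (694 and 2453) and 4114 without it (1057 and 3057), and 473 were higher after scaling. Leaving out 1 sample gave 758 to 1081 calls, with 84 to 252 higher and 617 to 938 lower. The wider lists (8, with 4 higher and 4 lower) gave 3 without the filter (1 and 2), 4 without the variance trend (2 and 2), 13 after scaling (8 higher), 19 with voom (13 higher), 7 higher with the 10 TPM filter, 16 at an adjusted p under 0.05 with the fold threshold (8 and 8) and 25 without it (14 and 11). Leaving out 1 sample gave 3 to 8 calls, with 1 to 6 higher and 2 to 3 lower.

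Signs turned in 6 members whose fold change was near 0. Glrx was 0.00645 after scaling, 0.0125 with voom and from -0.175 to 0.0224 without 1 sample, and Gpx3 was 0.0468, 0.0338 and from -0.128 to 0.0442. Without 1 sample, Blvrb ranged from -0.0112 to 0.18, Txn2 from -0.0124 to 0.0794, Sod2 from -0.222 to 0.0152 and Me1 from -0.0015 to 0.234. The cause of these shifts was not tested.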
